A study of Homo sapiens with 4 samples.

Results

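The proteasome is the protease that degrades ubiquitin-tagged proteins, and the levels of its subunit genes were examined here in U87MG cells, an established human glioblastoma cell line. A probe set was taken as a member when its only gene symbol in the platform annotation began with PSMA, PSMB, PSMC, PSMD, PSME or PSMG followed by a digit. This gave 47 probe sets of 46 genes out of 32321 probe sets on the array, of which 19158 carried 1 symbol, for 18404 genes. Of the 47 numbered subunit names in these families, PSMC5, PSMD7 and PSMD13 were not analysed here, as no probe set was named for them alone. PSMC6 had 2 probe sets and the brighter one was used, and the symbol rule also took in PSMC3IP and PSME3IP1, whose products are not subunits.

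The study asked which transcripts change when caspase-2, a protease of the caspase family, is silenced. U87MG cells transfected with an siRNA against CASP2 (2 arrays, biological replicates 1 and 2) were compared with U87MG cells that received a control siRNA (2 arrays, biological replicates 1 and 2). Both groups were the same line, grown in the same medium and transfected with lipid reagent, and the labels do not say which of the study's siRNA oligos was put on the arrays. Each array measured total RNA on an Affymetrix Human Gene 1.0 ST chip, and each value is a log2 signal after RMA normalization, so that a difference of 1 is a 2-fold difference in signal. The RNA came from whole cultures, in which fewer cells with a transcript and less of it per cell cannot be told apart. The rule did not use the measured values.

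CASP2 itself read 8.79 and 8.52 on the CASP2 siRNA arrays, against 10.74 and 10.69 on the control siRNA arrays, which is 4.17-fold less (log2 fold change -2.06 ± 0.13 SE). No probe set on the array passed an adjusted p of 0.05 in limma, CASP2 included (adjusted p = 0.9999), although 979 had an unadjusted p under 0.05. VIM, CD44, FN1, SPARC and TNC, which glioblastoma lines with a mesenchymal character express, lay at or above percentile 97.3 of all probe sets on the control siRNA arrays. The glial markers GFAP at percentile 53.8, OLIG2 at 48.1, SOX2 at 40.7 and S100B at 14.0 did not stand out, nor did the progenitor marker NES at 53.7. All 3 lymphoid or myeloid markers, all 3 endothelial and all 3 epithelial markers measured were below the median of all probe sets, as was RBFOX3 of the 3 neuronal markers, while SNAP25 was at percentile 72.9. The 2 CASP2 siRNA arrays differed more from each other, with an SD of 0.348 over all probe sets, than the 2 control siRNA arrays did, with an SD of 0.205, and the array pairs across groups gave 0.238 to 0.290.

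The 26S proteasome is a barrel, the 20S core, capped by 19S regulators. The core has outer rings of alpha subunits, which gate the entrance, and inner rings of beta subunits, of which beta1 (PSMB6), beta2 (PSMB7) and beta5 (PSMB5) cut peptide bonds. The 19S cap binds ubiquitin chains, removes them through PSMD14 and unfolds the substrate with a ring of ATPases. Interferon gamma induces replacement catalytic subunits, PSMB9 for PSMB6, PSMB10 for PSMB7 and PSMB8 for PSMB5, which form the immunoproteasome and favour peptides that fit MHC class I. In human cells a shortage of proteasome activity is met by the transcription factor NFE2L1, which binds antioxidant response elements in proteasome gene promoters.

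The stretches before the start sites of a constitutive catalytic gene and of the immunoproteasome genes are shown because PSMB8 and PSMB9 lay on the other side of 0 from PSMB10, and PSMB5 close to 0. They are the 250 bases upstream of the first listed RefSeq start, on GRCh38.p14, and capitals mark every match to any of 6 motifs, read on both strands. The motifs included CCAAT, the CCAAT box, TTCNNNGAA, the gamma-activated site, and GGAAGT, an ETS core. GAAA, any 2 bases and GAAA was the core of the interferon-stimulated response element. TGACNNNGC was the strict core of the antioxidant response element. Its looser form was TGA, any 4 bases and GCA, which leaves free the base that is C after TGA in the strict core. The 2 antioxidant cores can overlap. PSMB5 lies at chr14:23035221-23035470 on the minus strand, PSMB8 at chr6:32844680-32844929 on the minus strand, PSMB9 at chr6:32853942-32854191 on the plus strand and PSMB10 at chr16:67936851-67937100 on the minus strand.
PSMB5: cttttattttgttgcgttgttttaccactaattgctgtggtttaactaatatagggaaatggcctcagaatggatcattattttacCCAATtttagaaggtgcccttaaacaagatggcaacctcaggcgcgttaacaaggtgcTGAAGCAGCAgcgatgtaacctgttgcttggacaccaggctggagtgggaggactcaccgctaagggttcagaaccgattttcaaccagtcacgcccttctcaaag
PSMB8: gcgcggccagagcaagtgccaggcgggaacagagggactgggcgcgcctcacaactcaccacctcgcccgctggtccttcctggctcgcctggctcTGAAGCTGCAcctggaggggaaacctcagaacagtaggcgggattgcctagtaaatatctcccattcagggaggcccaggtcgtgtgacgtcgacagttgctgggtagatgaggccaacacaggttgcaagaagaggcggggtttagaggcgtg
PSMB9: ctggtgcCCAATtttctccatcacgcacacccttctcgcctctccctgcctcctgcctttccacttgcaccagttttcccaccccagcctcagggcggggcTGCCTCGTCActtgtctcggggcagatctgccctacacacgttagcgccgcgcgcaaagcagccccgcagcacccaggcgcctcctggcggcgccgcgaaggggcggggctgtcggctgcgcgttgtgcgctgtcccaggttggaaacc
PSMB10: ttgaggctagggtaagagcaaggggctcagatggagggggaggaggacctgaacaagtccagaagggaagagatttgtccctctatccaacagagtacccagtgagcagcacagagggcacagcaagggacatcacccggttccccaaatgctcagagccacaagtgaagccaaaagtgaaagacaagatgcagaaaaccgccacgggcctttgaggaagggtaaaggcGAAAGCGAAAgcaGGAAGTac
The PSMB10 window held GAAAGCGAAA beginning 21 bases before the start and GGAAGT beginning 8 bases before it. The PSMB9 window held a CCAAT box 243 bases before the start and GCCTCGTCA, the strict antioxidant core on the opposite strand, at 148 bases, inside a match to the looser core at 149 bases. The PSMB8 window shown held TGAAGCTGCA, a match to the looser antioxidant core at 154 bases. The PSMB5 window held TGAAGCAGCA, a match to that looser core at 106 bases, and a CCAAT box at 164 bases. Both matches have A where the strict core has C. Further starts of both genes are listed, and their windows, not shown, held gamma-activated sites, TTCTCGGAA at 65 bases for PSMB8 and TTCAGTGAA at 158 and TTCTCAGAA at 15 bases for PSMB5, with an ETS core at 66 bases. PSMB9 starts 488 bases from the start of TAP1, a subunit of the peptide transporter that loads MHC class I, and the genes are read in opposite directions.

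RefSeq promoter windows were matched for 40 of the 46 members, 49 windows in all, and for none of PSMB6 and PSMB7. TGACNNNGC occurred in 12 of the 49 member windows (24.5%), against 10.9% of 35116 human windows and 11.2% of the 22198 windows of protein-coding genes. Its looser form also occurred in 12 (24.5%), against 10.2% of all windows and 9.04% of protein-coding ones. The windows with the strict core belonged to PSMA4, PSMB3, PSMB9, PSMD3, PSMD5, PSMD9, PSMD12, PSME1, PSME2, PSME4, PSMG1 and PSMG2. GGAAGT was in 21 member windows (42.9%), against 19.5% and 20.5%, and CCAAT was also in 21 (42.9%), against 32% and 32.7%. TTCNNNGAA was in 7 (14.3%), against 6.57% and 5.92%, and the interferon-stimulated core was in 5 (10.2%), those of PSMA4, PSMB4, PSMB10, PSME2 and PSMG4, against 3.02% and 2.71%. Mean GC content was 61.2% in the member windows, 57.2% in all windows and 60.6% in those of protein-coding genes. A match is a stretch of letters and not a measured site, several windows belong to 1 gene, and these shares were not tested.

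The members were among the bright probe sets of the array. On the control siRNA arrays 38 of the 46 genes lay in the upper quartile of all probe sets, above a log2 value of 8.67, and 2 lay below the median of 6.20. Probes differ in how strongly they bind, so these positions describe signal and do not order the transcripts by abundance. The median percentile of control siRNA signal was 94.5 for the alpha ring, 96.1 for the constitutive beta ring, 94.8 for the 19S ATPases, 95.2 for the other 19S subunits, 85.8 for the activators and 91.0 for the assembly chaperones. It was 62.2 for the replacement beta subunits, of which 0 of 4 reached the upper quartile. The 2 members below the median were PSMA8, the testis alpha subunit, and PSMB11, the thymus beta subunit. PSMA8 read 3.69 and 3.60 on the CASP2 siRNA arrays, against 3.63 and 3.60 on the control siRNA arrays, and PSMB11 is described with the replacement beta subunits.

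**Figure D1:**
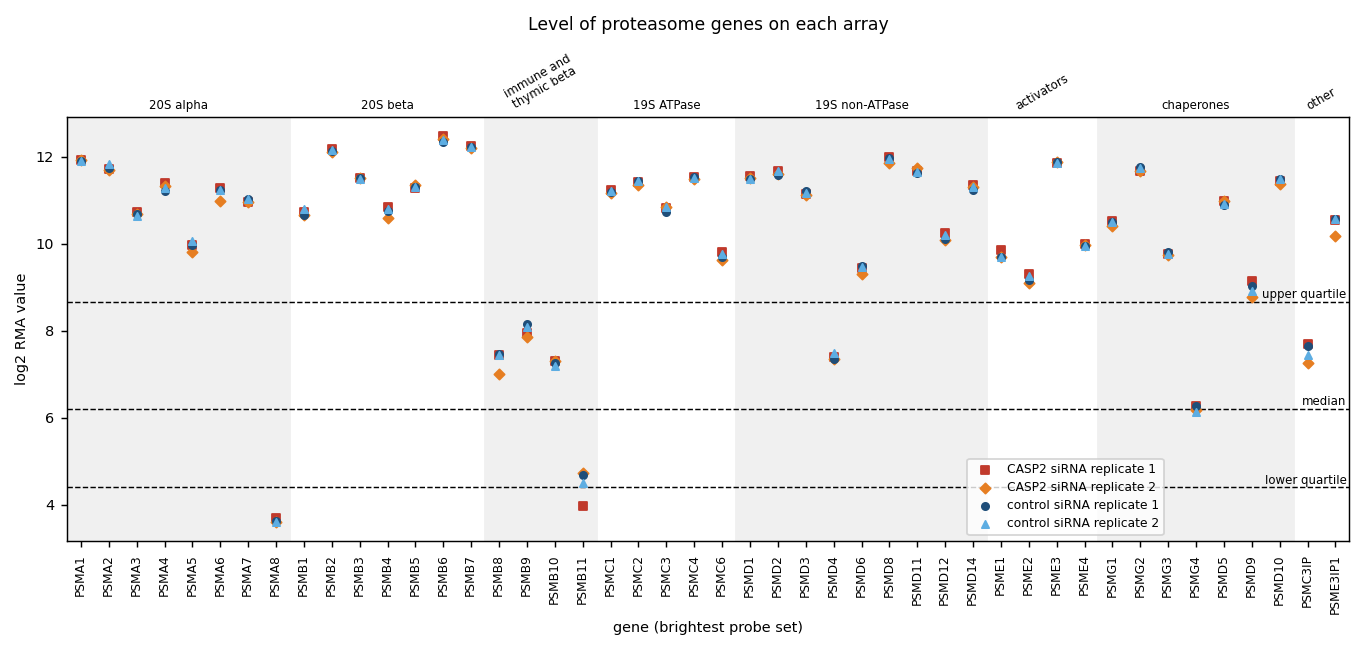
Log2 RMA value (y axis) of each of the 46 genes (x axis, grouped by role) on the 2 CASP2 siRNA arrays (square, diamond) and the 2 control siRNA arrays (circle, triangle). Dashed lines give the lower quartile (4.40), median (6.20) and upper quartile (8.67) of all probe sets on the control siRNA arrays, and 38 of 46 genes lie above the top line while PSMA8 and PSMB11 lie below the median.

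No member changed past any threshold. Of the 46 genes, 0 passed an adjusted p of 0.05 (0% of all probe sets did), 0 had an unadjusted limma p under 0.05 (3.03% of all probe sets) and 0 passed a fold above 1.5 with an unadjusted p under 0.05, the thresholds of the methods (0.693% of all probe sets). With its floor on the SD, the methods' t-test gave 0 members on each count too. The log2 fold change lay above 0 for 18 genes and below 0 for 28, with a median of -0.01 beside 0.00 for all probe sets, and ran between -0.24 for PSMB11 and 0.12 for PSMA4. Both CASP2 siRNA arrays read above both control siRNA arrays for 10 genes (14.5% of all probe sets did so) and below both for 11 genes (15.1% of all probe sets), and the groups overlapped for the other 25. After centring each array on its median these counts were 2 higher and 7 lower, against 11.1% and 14.7% of all probe sets. After a further quantile normalization they were 10 higher and 10 lower, against 16% and 16%.

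The 95% limma interval stayed inside 1.5-fold in either direction for 43 of the 46 genes, as it did for 24469 of all 32321 probe sets and for 7506 of the 8081 in the upper quartile of signal. The exceptions were PSMB8, PSMB11 and PSME3IP1, each on the lower side. For the 28 constitutive 20S and 19S subunits, a group that leaves out PSMA8 and was formed after its values were seen, the interval bounds ran between -0.45 and 0.37, so that larger changes in these transcripts lay outside all 28 intervals. The width of these intervals draws on the spread of all probe sets as well as on the arrays of each gene. With control siRNA replicate 1 left out, 27 genes had an interval inside 1.5-fold.

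**Figure D2:**
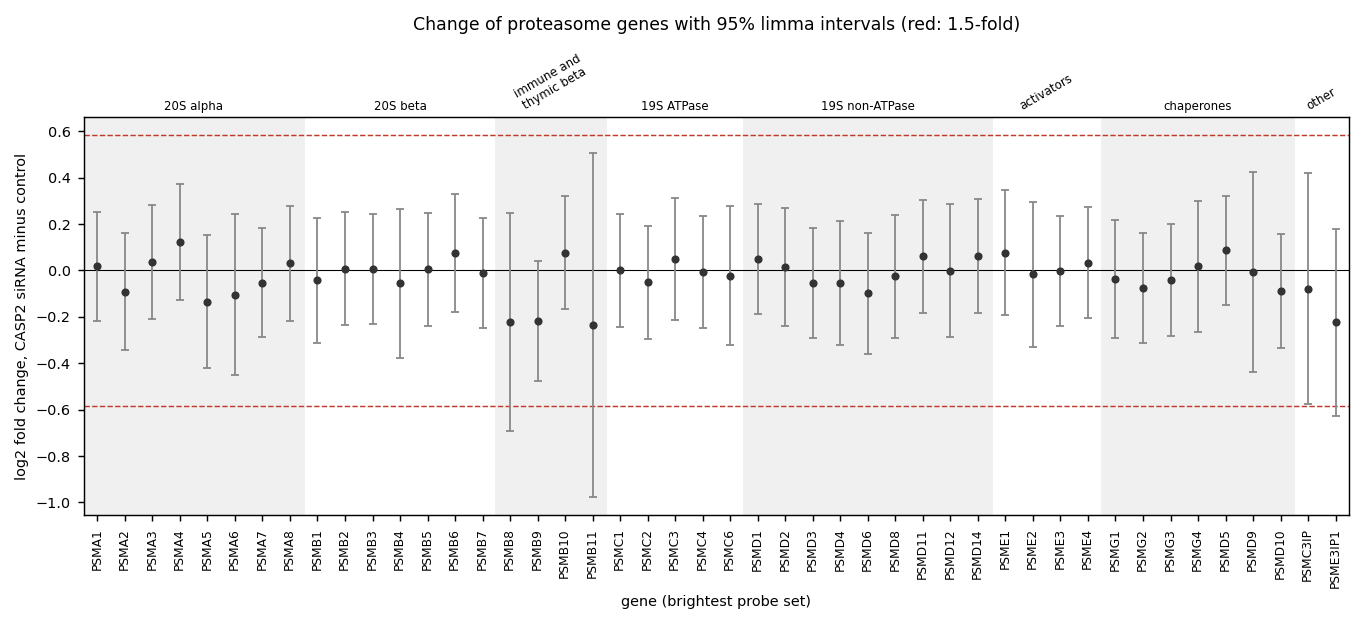
Log2 fold change, CASP2 siRNA minus control siRNA (y axis), of each of the 46 genes (x axis, grouped by role), with points for the limma estimate and bars for its 95% interval. The red dashed lines mark 1.5-fold, and the bars of 43 genes stay inside them while those of PSMB8, PSMB11 and PSME3IP1 cross the lower line.

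Differences in the core genes were small. In the alpha ring, 4 of 8 genes lay above 0 and 4 below, with a median log2 fold change of -0.02. PSMA4 had the largest increase of the 46 genes, with 11.41 and 11.33 on the CASP2 siRNA arrays, against 11.22 and 11.28 on the control siRNA arrays (log2 fold change 0.12, 95% interval -0.13 to 0.37). PSMA5 read 9.97 and 9.81 on the CASP2 siRNA arrays, against 9.98 and 10.07 on the control siRNA arrays (-0.14, -0.42 to 0.15). The groups did not overlap for either gene as deposited, with a gap of 0.01 for PSMA5. They overlapped for both after median centring and were apart for both after a further quantile normalization. PSMA2 read 11.71 and 11.69 on the CASP2 siRNA arrays, against 11.74 and 11.84 on the control siRNA arrays (-0.09, -0.34 to 0.16), with all its CASP2 siRNA values below its control siRNA values. For PSMA7 they were also below, by a gap of 0.05. Both genes kept their groups apart after median centring and after a further quantile normalization. PSMA1, the brightest of the alpha ring, spanned 0.02 over the 4 arrays. PSMA6 had its lowest value, 10.99, on CASP2 siRNA replicate 2, beside 11.28 on CASP2 siRNA replicate 1 and 11.23 and 11.25 on the control siRNA arrays.

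The constitutive beta ring gave a median log2 fold change of 0.01, with 4 of 7 genes above 0 and 3 below. PSMB5, the chymotrypsin-like subunit, read 11.28 and 11.35 on the CASP2 siRNA arrays, against 11.32 and 11.30 on the control siRNA arrays (0.01, 95% interval -0.24 to 0.25). PSMB6, the caspase-like subunit, read 12.48 and 12.40 on the CASP2 siRNA arrays, against 12.34 and 12.40 on the control siRNA arrays (0.07, -0.18 to 0.33). PSMB7, the trypsin-like subunit, read 12.24 and 12.20 on the CASP2 siRNA arrays, against 12.23 and 12.24 on the control siRNA arrays (-0.01, -0.25 to 0.23). The groups overlapped for PSMB5 and PSMB7. For PSMB6 they were apart by a gap of 0.002 that closed after median centring but not after a further quantile normalization. PSMB4, a structural beta subunit, was the most variable of this ring, with 10.84 and 10.61 on the CASP2 siRNA arrays, against 10.75 and 10.81 on the control siRNA arrays. Its neighbour PSMB1 read 10.73 and 10.66 on the CASP2 siRNA arrays, against 10.67 and 10.80 on the control siRNA arrays. PSMB3 varied least, spanning 0.02 over the 4 arrays.

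Differences in the 19S cap were of the same order. Of its 5 measured ATPases, PSMC3 lay above 0 and 4 lay below, and the median was -0.01. PSMC2 read 11.43 and 11.36 on the CASP2 siRNA arrays, against 11.45 and 11.44 on the control siRNA arrays (-0.05, 95% interval -0.29 to 0.19). PSMC3 read 10.83 and 10.85 on the CASP2 siRNA arrays, against 10.73 and 10.86 on the control siRNA arrays (0.05, -0.21 to 0.31). The groups were apart for PSMC2, also after a further quantile normalization though not after median centring. They overlapped for PSMC3 and for the other ATPases, PSMC1, PSMC4 and PSMC6. The second probe set of PSMC6 gave a log2 fold change of -0.01, beside -0.02 for the brighter one.

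Among the 9 non-ATPase subunits 4 genes lay above 0 and 5 below, with a median of 0.00. PSMD14, the deubiquitinase of the lid, read 11.36 and 11.30 on the CASP2 siRNA arrays, against 11.24 and 11.30 on the control siRNA arrays (0.06, 95% interval -0.18 to 0.31). PSMD11, a lid scaffold subunit, read 11.68 and 11.74 on the CASP2 siRNA arrays, against 11.64 and 11.66 on the control siRNA arrays (0.06, -0.18 to 0.31). PSMD6, another lid subunit, read 9.44 and 9.32 on the CASP2 siRNA arrays, against 9.49 and 9.47 on the control siRNA arrays (-0.10, -0.36 to 0.16). None of these groups overlapped, and the gap between them was 0.01 for PSMD14, 0.01 for PSMD11 and 0.03 for PSMD6. They overlapped after median centring for PSMD14 and PSMD6, but not for PSMD11. After a further quantile normalization they overlapped for PSMD11, but not for PSMD14 and PSMD6. For PSMD3 the CASP2 siRNA arrays were lower by a gap of 0.03 as deposited, and the groups stayed apart after either rescaling. PSMD4, a ubiquitin receptor, had the lowest signal of the cap, with 7.40 and 7.36 on the CASP2 siRNA arrays, against 7.36 and 7.50 on the control siRNA arrays. PSMD8 had the highest, with 12.00 and 11.87 on the CASP2 siRNA arrays, against 11.96 and 11.95 on the control siRNA arrays.

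**Figure D3:**
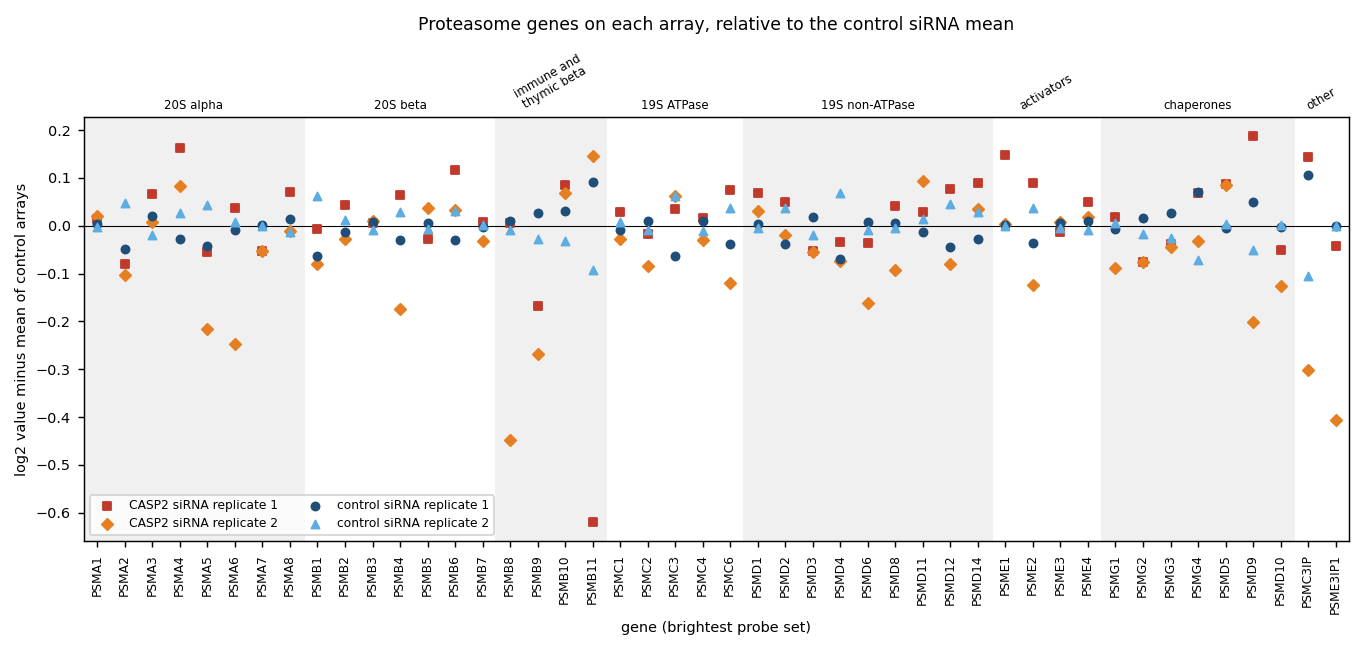
Log2 value of each of the 46 genes minus the mean of its 2 control siRNA arrays (y axis), by gene (x axis, grouped by role), on the 2 CASP2 siRNA arrays (square, diamond) and the 2 control siRNA arrays (circle, triangle). CASP2 siRNA replicate 2 is the lowest array for 27 genes, and PSMB11, PSMB8 and PSME3IP1 reach furthest from 0.

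The replacement beta subunits held 3 of the 4 lowest log2 fold changes among the members, while PSMB10 lay above 0, and none passed the test. The median log2 fold change of the 4 was -0.22, and it was -0.10 without CASP2 siRNA replicate 1 and -0.08 without CASP2 siRNA replicate 2. In limma the smallest unadjusted p of all members was 0.079, for PSMB9 (adjusted p = 0.9999). PSMB9 read 7.95 and 7.86 on the CASP2 siRNA arrays, against 8.15 and 8.10 on the control siRNA arrays (-0.22, 95% interval -0.48 to 0.04). Both CASP2 siRNA arrays were below both control siRNA arrays, also after median centring and after a further quantile normalization. PSMB8 read 7.45 and 7.00 on the CASP2 siRNA arrays, against 7.46 and 7.44 on the control siRNA arrays (-0.22, -0.69 to 0.25). Its groups overlapped, and its mean difference came from CASP2 siRNA replicate 2, without which the log2 fold change was 0.01. PSMB10 read 7.32 and 7.30 on the CASP2 siRNA arrays, against 7.26 and 7.20 on the control siRNA arrays (0.08, -0.17 to 0.32). Its CASP2 siRNA values were both above both control siRNA values as deposited and after a further quantile normalization, but not after median centring. PSMB11 read 3.97 and 4.73 on the CASP2 siRNA arrays, against 4.68 and 4.49 on the control siRNA arrays, near the lower quartile of all probe sets (-0.24, -0.98 to 0.50). Its low value came from CASP2 siRNA replicate 1, without which the log2 fold change was 0.15.

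PSMB8, PSMB9 and PSMB10 were each set against the constitutive subunit they displace, as the difference of the 2 log2 values on each array. PSMB11 was not paired. Only the change of this difference between groups can be read, as the probes differ. PSMB9 minus PSMB6 was -4.53 and -4.54 on the CASP2 siRNA arrays, against -4.19 and -4.30 on the control siRNA arrays, a change of -0.29. PSMB8 minus PSMB5 was -3.83 and -4.35 on the CASP2 siRNA arrays, against -3.86 and -3.87 on the control siRNA arrays, a change of -0.23. PSMB10 minus PSMB7 was -4.93 and -4.90 on the CASP2 siRNA arrays, against -4.97 and -5.04 on the control siRNA arrays, a change of 0.09. The groups were apart for PSMB9 minus PSMB6 and for PSMB10 minus PSMB7, in opposite directions, and overlapped for PSMB8 minus PSMB5. The two-sided exact permutation p was 0.333 for the first and the last of these pairs (0.5 after Benjamini-Hochberg adjustment over the 3 pairs) and 1 for PSMB8 minus PSMB5, and 0.333 is the smallest p that 2 arrays against 2 can give.

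PSMB8 and PSMB9 lie beside TAP1 and TAP2, which encode the MHC class I peptide transporter, and the 4 are consecutive protein-coding genes on chromosome 6 in the RefSeq table. TAP1 read 9.11 and 9.14 on the CASP2 siRNA arrays, against 9.24 and 9.30 on the control siRNA arrays (-0.15, 95% interval -0.39 to 0.10). TAP2 read 8.15 and 7.95 on the CASP2 siRNA arrays, against 8.30 and 8.25 on the control siRNA arrays (-0.23, -0.52 to 0.07). Both CASP2 siRNA arrays were below both control siRNA arrays for each transporter gene, and neither passed the test. Dimmer probe sets of TAP2 gave -0.26, with groups apart, and -0.08, with groups overlapping. TAPBP, another antigen presentation gene, gave 0.05 with its groups overlapping. Its dimmer probe sets gave 0.31, with the CASP2 siRNA arrays higher and groups apart, and -0.11, with groups overlapping. NLRC5, the transactivator of MHC class I genes, read 7.95 and 7.69 on the CASP2 siRNA arrays, against 8.03 and 8.06 on the control siRNA arrays (-0.22, -0.56 to 0.11). With CASP2 siRNA replicate 2 left out the log2 fold change was -0.10 for NLRC5 and -0.13 for TAP2. Both CASP2 siRNA arrays were above both control siRNA arrays for IRF1, an interferon-induced transcription factor (0.10), and JAK1, a kinase of the interferon receptors (0.09). Over the 11 measured of 15 genes of interferon gamma signalling and antigen presentation, 5 lay above 0 and 6 below, with a median of 0.00, which was -0.12 without CASP2 siRNA replicate 1 and 0.02 without CASP2 siRNA replicate 2. On all 4 arrays 0 of the 11 had an unadjusted limma p under 0.05. With groups apart, 2 of the 11 were higher and 3 lower, against 14.5% and 15.1% of all probe sets.

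**Figure D4:**
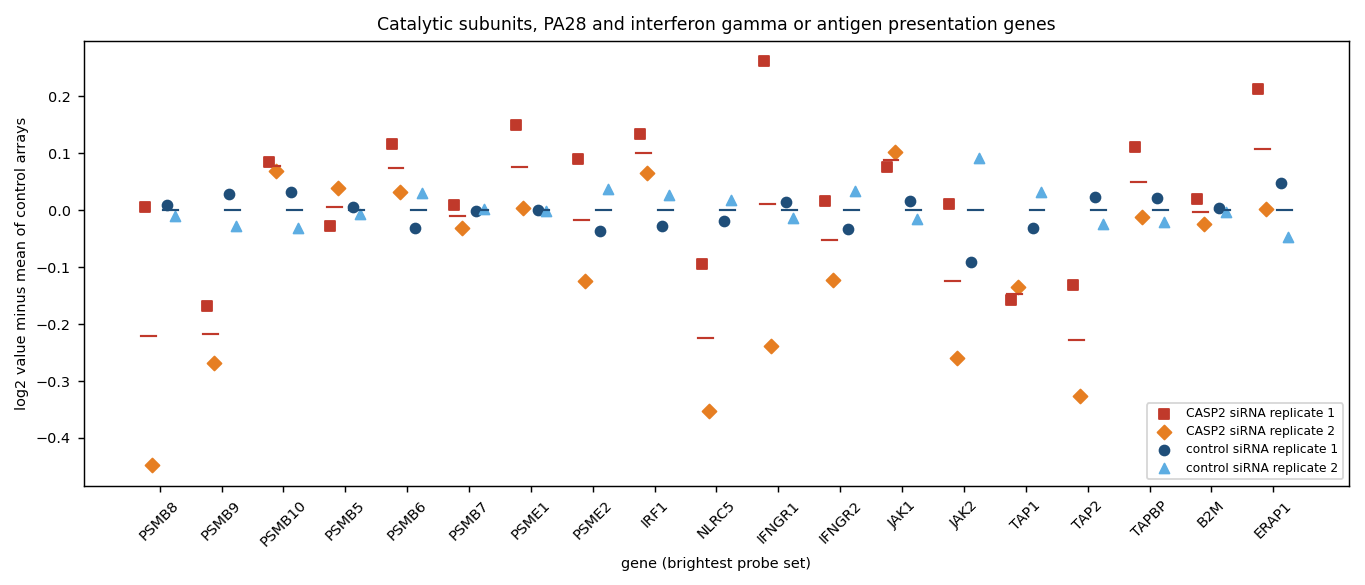
Log2 value minus the mean of the 2 control siRNA arrays (y axis) for the catalytic subunits, PSME1, PSME2 and the 11 measured genes of interferon gamma signalling and antigen presentation (x axis), with horizontal bars at the group means. PSMB9, TAP1, TAP2 and NLRC5 have both CASP2 siRNA arrays (square, diamond) below both control siRNA arrays (circle, triangle), IRF1 and JAK1 have both above, and PSMB8 is low on CASP2 siRNA replicate 2 only.

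The alternative caps gave small differences. PSME1 and PSME2, which form the interferon-inducible PA28 activator, differed in sign. PSME1 read 9.85 and 9.70 on the CASP2 siRNA arrays, against 9.70 and 9.70 on the control siRNA arrays (0.08, 95% interval -0.19 to 0.35). PSME2 read 9.31 and 9.09 on the CASP2 siRNA arrays, against 9.18 and 9.25 on the control siRNA arrays (-0.02, -0.33 to 0.29). The groups overlapped for PSME2. For PSME1 they were apart by a gap of 0.002 that closed after median centring but not after a further quantile normalization. PSME3, the nuclear PA28 gamma subunit, spanned 0.02 over the 4 arrays. PSME4, the PA200 activator, spanned 0.06, with 10.00 and 9.97 on the CASP2 siRNA arrays, against 9.96 and 9.94 on the control siRNA arrays. PSME3IP1, whose product binds PSME3, read 10.54 and 10.18 on the CASP2 siRNA arrays, against 10.58 and 10.58 on the control siRNA arrays (-0.22, -0.63 to 0.18), with most of the difference on CASP2 siRNA replicate 2. PSMC3IP, whose product acts in meiotic recombination, read 7.70 and 7.25 on the CASP2 siRNA arrays, against 7.66 and 7.45 on the control siRNA arrays, and its groups overlapped.

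The 7 assembly chaperones, which guide the rings together and are absent from the finished particle, had a median of -0.04, with 2 genes above 0 and 5 below. PSMD5, a chaperone of the 19S base, read 10.99 and 10.99 on the CASP2 siRNA arrays, against 10.90 and 10.91 on the control siRNA arrays (0.09, 95% interval -0.15 to 0.32). PSMD10, known as gankyrin and also a base chaperone, read 11.44 and 11.37 on the CASP2 siRNA arrays, against 11.49 and 11.49 on the control siRNA arrays (-0.09, -0.33 to 0.16). PSMG2, a chaperone of the alpha ring, read 11.67 on both CASP2 siRNA arrays, against 11.77 and 11.73 on the control siRNA arrays (-0.08, -0.31 to 0.16). For PSMD5, PSMD10 and PSMG2 the groups stayed apart as deposited, after median centring and after a further quantile normalization. PSMG4 had the lowest signal of the class, with 6.28 and 6.18 on the CASP2 siRNA arrays, against 6.28 and 6.14 on the control siRNA arrays.

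The range over the 4 arrays had a median of 0.12 for the members, beside 0.28 for all probe sets and 0.17 for those in the upper quartile of signal. It was under 0.2, a bound chosen after the values were seen, for 36 of 46 members (78.3%), against 32% of all probe sets and 58.4% of the upper quartile. The upper quartile is not matched to the members in signal. Its median control siRNA level was 10.03, against 11.22 for the 38 members that lay in it. The median SD within a group was 0.05 on the CASP2 siRNA arrays and 0.02 on the control siRNA arrays, and the SD was larger on the CASP2 siRNA arrays for 32 members (69.6%), against 70.1% of all probe sets. CASP2 siRNA replicate 2 was the lowest of the 4 arrays for 27 members (58.7%), against 35.3% of all probe sets and 51.7% of the upper quartile, and CASP2 siRNA replicate 1 was the highest for 24 members (52.2%), against 30.1% and 37.6%. With CASP2 siRNA replicate 1 left out, 16 members lay above 0 and 30 below, and 4 had an unadjusted limma p under 0.05, among 19.4% of all probe sets. These were PSMB8 at -0.45, PSME3IP1 at -0.41, PSMB9 at -0.27 and PSMA6 at -0.25 on the log2 scale. With CASP2 siRNA replicate 2 left out, 30 members lay above 0 and 16 below, and PSMB11 alone had an unadjusted p under 0.05, at -0.62, among 10.9% of all probe sets, and it also passed 1.5-fold, among 1.97% of all probe sets. CASP2 siRNA replicate 2 had the highest median of all probe sets, 6.28 against 6.18 to 6.21 on the other arrays. It also had the lowest upper quartile, 8.58 against 8.66 to 8.69. Median centring thus lowered this array, already low for bright probe sets, relative to the others. The part of the difference between the CASP2 siRNA replicates in the members' results was not tested.

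Genes that work around the proteasome were counted in the same way. All 14 partners outside the PSM names were measured, and 2 lay above 0 and 12 below. Of all probe sets 50.7% lay above 0, and 42.9% of those in the upper quartile of signal, where 13 of the 14 partners lay. The median was -0.015 for the partners and -0.015 for the upper quartile, and 0 partners had an unadjusted limma p under 0.05. CASP2 siRNA replicate 2 was the lowest array for 10 of the 14, against 35.3% of all probe sets and 51.7% of the upper quartile. The median of the partners was 0.04 without CASP2 siRNA replicate 2 and -0.10 without CASP2 siRNA replicate 1. UCHL5, a deubiquitinase of the 19S cap, read 8.87 and 8.79 on the CASP2 siRNA arrays, against 8.98 and 8.94 on the control siRNA arrays (-0.13, 95% interval -0.38 to 0.12). SEM1, a small lid subunit, gave -0.08, with its groups apart, and PAAF1, a base chaperone, gave -0.10, with its groups overlapping. With groups apart, 2 of the 14 partners were higher and 2 lower, against 14.5% and 15.1% of all probe sets. Of 13 genes listed for the transcriptional control of proteasome genes and its processing, 11 were measured. Their median was 0.01, with 6 above 0 and 5 below. NFE2L1 gave 0.03 and NFE2L2, its relative that answers oxidative stress, 0.05. NFE2L3, a less studied relative of both, read 4.91 and 5.15 on the CASP2 siRNA arrays, against 5.30 and 5.17 on the control siRNA arrays (-0.20, -0.54 to 0.13). MAFF, a small MAF partner, gave -0.17. SEL1L, part of the ubiquitin ligase of the endoplasmic reticulum, gave 0.14. All 3 had their groups apart. Both CASP2 siRNA arrays were higher for 4 of the 11 genes and lower for 5, against 14.5% and 15.1% of all probe sets, and these counts were not tested. None of the 11 had an unadjusted limma p under 0.05.

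Ubiquitin, its activating enzymes and the shuttle factors that bring substrates to the cap were represented by 10 of 14 genes, with 6 above 0, 4 below and a median of 0.01. UBQLN2, a shuttle factor, read 10.21 and 10.27 on the CASP2 siRNA arrays, against 10.03 and 10.02 on the control siRNA arrays (0.22, 95% interval -0.03 to 0.46). UBA6, an activating enzyme, read 10.19 and 10.05 on the CASP2 siRNA arrays, against 10.29 and 10.25 on the control siRNA arrays (-0.15, -0.42 to 0.11). The related shuttle factor UBQLN4 gave -0.05, and its dimmer probe set gave -0.29, also with groups apart. The groups were apart for these 3 genes and for RAD23B and UBQLN1, also shuttle factors, at 0.04 and 0.03. That made 3 of the 10 genes higher and 2 lower, against 14.5% and 15.1% of all probe sets. In limma 0 of the 10 genes had an unadjusted p under 0.05. UBQLN2, named for the smallest p of its list, had an unadjusted p of 0.0166 with trended and robust eBayes. The share of all probe sets under 0.05 in that fit is not given here, so this value was not set against it. The adjusted p of UBQLN2 stayed above 0.05 in every alternative that kept all arrays. Its log2 fold change was 0.25 without CASP2 siRNA replicate 1 and 0.19 without CASP2 siRNA replicate 2.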

How the data were processed

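RNA of 2 CASP2 siRNA and 2 control siRNA cultures, grouped by the treatment and biological replicate in the labels, was measured on 1 array each, and this number limits the precision. The authors normalized the arrays by RMA, with the version not given in the sources used here. Each deposited value is on a log2 scale, for 1 probe set. RMA evens out the distribution of probe values, so a shift common to all genes is largely removed. Names came from the platform annotation, with 19128 of 19158 single symbols looked up by gene ID in RefSeq (GRCh38.p14).

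All 32321 probe sets were fitted with limma 3.58.1 (lmFit and eBayes, R 4.3.3, two-sided, Benjamini-Hochberg over all probe sets, 2 residual and 2.47 prior degrees of freedom), and the fit was tested on simulated data. The limma p-values set the difference between groups against the spread within groups, moderated by that of all probe sets. Each gene was given by its brightest probe set. Members and lists were chosen with earlier results of these data known. Named were the catalytic subunits, activators and PSMD14, the 5 largest increases and decreases among members with groups apart, the 3 smallest p in each class and list, the highest and lowest signal of each class, and CASP2, and other genes named were chosen after their values were seen. Alternatives were the methods' t-test, median centring, a further quantile normalization, trended and robust eBayes, leaving out dim probe sets, linear means, a replicate block, other probe set rules and each array left out. The motifs and windows were chosen after the expression values were seen.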

Additional observations from a re-analysis of the deposited data

How the results depend on the processing

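Under 11 alternatives (the methods' t-test, trend and robust options, a further quantile normalization, median centring, no dim probe sets, linear means, the replicate block and each of the 4 arrays left out) 0 of the 33 named members passed an adjusted p of 0.05, and 16 kept the sign of their log2 fold change throughout, PSMB6, PSMB9 and PSMB10 included. Those 16 all had their groups apart as deposited, so no array left out could change their sign, nor could linear means. The t-test, the eBayes options, the replicate block and the dim filter leave the estimate as it was. Only median centring and the further quantile normalization could thus have changed these signs. Counts of calls were the same with every member probe set and with the mean of the probe sets of a gene. The non-overlap counts have no value under alternatives that change only the test or its moderation. After median centring the members with groups apart were 2 higher and 7 lower, against 11.1% and 14.7% of all probe sets. The log2 fold change was then -0.0019 for PSMA1, -0.015 for PSMB5 and -0.0013 for PSMG4. After a further quantile normalization the members with groups apart were 10 higher and 10 lower, against 16% and 16% of all probe sets. The log2 fold change was then 0.013 for PSME2, 0.0063 for PSME3 and -0.0089 for PSMG4. The cause was not tested.

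Over the 4 fits that each left out 1 array, the members at an unadjusted p under 0.05 numbered 0 to 4, among 1.1% to 19.4% of all probe sets, and those past the thresholds of the methods 0 to 1, among 0.851% to 3.06%. The members with groups apart numbered 12 to 26 higher, among 26% to 39.3% of all probe sets, and 13 to 27 lower, among 24.9% to 40.2%, since 1 array against 2 overlaps less often. For the higher counts, the ends of the member range and of the range for all probe sets come from different fits, so they are not to be paired. The lone array is assumed in these fits to vary like the other group. The median over members ran between -0.039 without CASP2 siRNA replicate 1 and 0.028 without CASP2 siRNA replicate 2, and PSMB8 minus PSMB5 between -0.49 and 0.034. The log2 fold change ran between -0.012 and 0.071 for PSMA8, -0.11 and 0.020 for PSMB1, -0.17 and 0.063 for PSMB4, -0.028 and 0.038 for PSMB5, -0.031 and 0.0089 for PSMB7, -0.45 and 0.0057 for PSMB8, and -0.62 and 0.15 for PSMB11. It ran between -0.015 and 0.11 for PSMC3, -0.30 and 0.14 for PSMC3IP, -0.029 and 0.016 for PSMC4, -0.12 and 0.074 for PSMC6, -0.12 and 0.015 for PSMD4, -0.091 and 0.041 for PSMD8, -0.12 and 0.090 for PSME2, -0.013 and 0.0070 for PSME3, -0.052 and 0.089 for PSMG4, and -0.27 and 0.079 for PAAF1. Among genes that kept their sign it ran between 0.0031 and 0.15 for PSME1, -0.41 and -0.042 for PSME3IP1, -0.16 and -0.036 for PSMD6, -0.22 and -0.054 for PSMA5, -0.14 and -0.043 for PSMA2, 0.033 and 0.12 for PSMB6, 0.045 and 0.11 for PSMB10, -0.084 and -0.018 for PSMC2, -0.13 and -0.051 for PSMD10, 0.028 and 0.093 for PSMD11, 0.035 and 0.090 for PSMD14, 0.018 and 0.050 for PSME4, -0.32 and -0.086 for NFE2L3, -0.23 and -0.11 for MAFF, and -0.22 and -0.085 for UBA6.

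The groups share the replicate numbers 1 and 2, but the deviations of arrays with the same number correlated at only 0.0198, so the numbers were not taken to pair the arrays. With the replicate block 0 members passed an adjusted p of 0.05 and 0 an unadjusted p of 0.05, and the median over members was -0.0088. With 2 arrays a group, small changes of single subunit transcripts cannot be told from the spread between arrays.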
